A study of Rattus norvegicus with 4 samples.

Results

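The genes described here encode 6 subunits of the NMDA receptor: Grin1, Grin2a, Grin2b, Grin2c, Grin2d and Grin3a. They were found on the array through the RefSeq transcript accession of each probe, which gave 8 probes for the 6 genes, among 18355 named probes for 15443 genes in all. The levels come from cerebellum and prefrontal cortex of male rats in a depressive or a control state, assigned after 106 rats were scored for immobility in the forced swimming test. The 4 groups were cerebellum of depressive rats, cerebellum of control rats, prefrontal cortex of depressive rats and prefrontal cortex of control rats. Each group was 1 pool of RNA from 4 rats on 1 array with a single dye. All rats had been through the swimming test 1 week before the tissue was taken, and their blood had been washed out with saline. The labels give neither strain nor age. The depressive state is a behavioural score, with no treatment named in the labels, and a pool hides the spread between its 4 animals.

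The NMDA receptor is a glutamate-gated channel of excitatory synapses that lets calcium in. It opens when glutamate binds GluN2 subunits and glycine or D-serine binds GluN1, while the membrane is depolarised enough to expel magnesium from the pore. GluN1, encoded by Grin1, is the obligatory subunit. The GluN2 subunits set the kinetics and the magnesium block, and GluN3 subunits lower the calcium flow. In rodents the GluN2B subunit is widespread in the forebrain throughout life, whereas cerebellar granule cells, the most numerous neurons of the brain, exchange it for GluN2C as they mature. Ketamine, which has a rapid antidepressant action in people, blocks this channel.

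Before the subunits, the tissues were checked against marker genes. All 8 granule cell markers and all 6 Purkinje cell markers were higher in cerebellum, with median log2 differences of 5.71 and 4.20, and 8 of 9 cortical neuron markers were lower there, with a median of -2.68. The deposited table of values assigns 2 scanner files (control prefrontal cortex and depressive cerebellum) to each other's samples, and this assignment, which the names of the files also give, was followed here. If the files are taken as they are linked to the samples instead, the comparison of tissues becomes a comparison of states, and the result is given beside each count. Of 30364 probes, between 73.1% and 78.2% were well above background on an array. Whether the 4 arrays shared 1 slide is not established here.

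A promoter is shown for Grin1, since, of the members with an entry in the RefSeq promoter table, it is the one whose 250 bases before the start lie outside any longer transcript model of the gene. It lies at chr3:28528755-28529004 on the minus strand of GRCr8, with 5′ to 3′ sequence from RefSeq, and capitals mark the CpG dinucleotides.

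Grin1 promoter: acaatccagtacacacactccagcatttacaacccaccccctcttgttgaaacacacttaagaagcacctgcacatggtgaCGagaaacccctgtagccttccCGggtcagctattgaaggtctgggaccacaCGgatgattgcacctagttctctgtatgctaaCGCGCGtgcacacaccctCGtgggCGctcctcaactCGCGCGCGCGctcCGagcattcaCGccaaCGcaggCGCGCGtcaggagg

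The window held 19 CpG, against a median of 5 over 33469 rat promoters of the same length, which put it at percentile 81.6. Its GC content was 57.6%, against a median of 51.2%. Of the 6 subunit genes, 4 have a promoter in this table. In Grin2c, Grin2d and Grin3a the window lies inside the span of a longer transcript, with 8, 9 and 16 CpG. A GC box, searched as GGGCGG on both strands, was in none of these 4 windows, and 30.5% of all promoters of this length hold it. The E-box form CAGATG, searched on both strands, was in none of the 4 either, and 14.0% of all promoters hold it. Other forms of the E-box were not searched. The full palindromic NFI site, also searched on both strands, was in none of the 4, and 0.0359% of all promoters hold it. The motifs do not overlap.

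The first comparison was of the tissues. Between cerebellum and prefrontal cortex, by the brightest probe of each gene, Grin2c rose in cerebellum, and Grin1, Grin2a, Grin2b, Grin2d and Grin3a fell there. All 6 passed an adjusted p of 0.05 in a limma fit of tissue with state as a term, which has 1 residual degree of freedom and takes the arrays of the 2 states as the replicates of a tissue. Each group has 1 array. The p-values thus rest on how far the tissue difference varies between the 2 states, with a spread drawn from all genes. They do not measure the spread between pools of the same group. Of 12449 genes tested, 8681 passed as well, or 69.7%, so that passing says little about the subunits. Of the 5 subunits well above background on all 4 arrays, all 5 passed, and in a fit of such genes alone 8458 of 11616 did. Grin2b entered through prefrontal cortex alone. The second Grin1 probe did not pass in a fit over all probes (-0.02, limma adjusted p = 0.864). Genes that passed as higher in cerebellum made up 32.3% of those tested, and genes that passed as lower there 37.4%. With the files as linked, 0 of the subunits tested passed between tissues. At 2-fold or more in both states, 4 of the 6 subunits differed, 1 higher and 3 lower, while 21.0% of all genes did. Grin2b is among them by its bound. Of the 5 subunits well above background on all 4 arrays, 3 differed by this measure, and the share of all such genes was not counted. The higher direction held 8.06% of all genes and the lower 12.9%. The median log2 difference of the subunits was -1.37, and that of all genes tested was -0.04. The subunit median counts Grin2b at its measured value, which was not well above background in cerebellum. In these bulk samples, fewer cells of a type and less RNA per cell cannot be told apart.

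**Figure D1:**
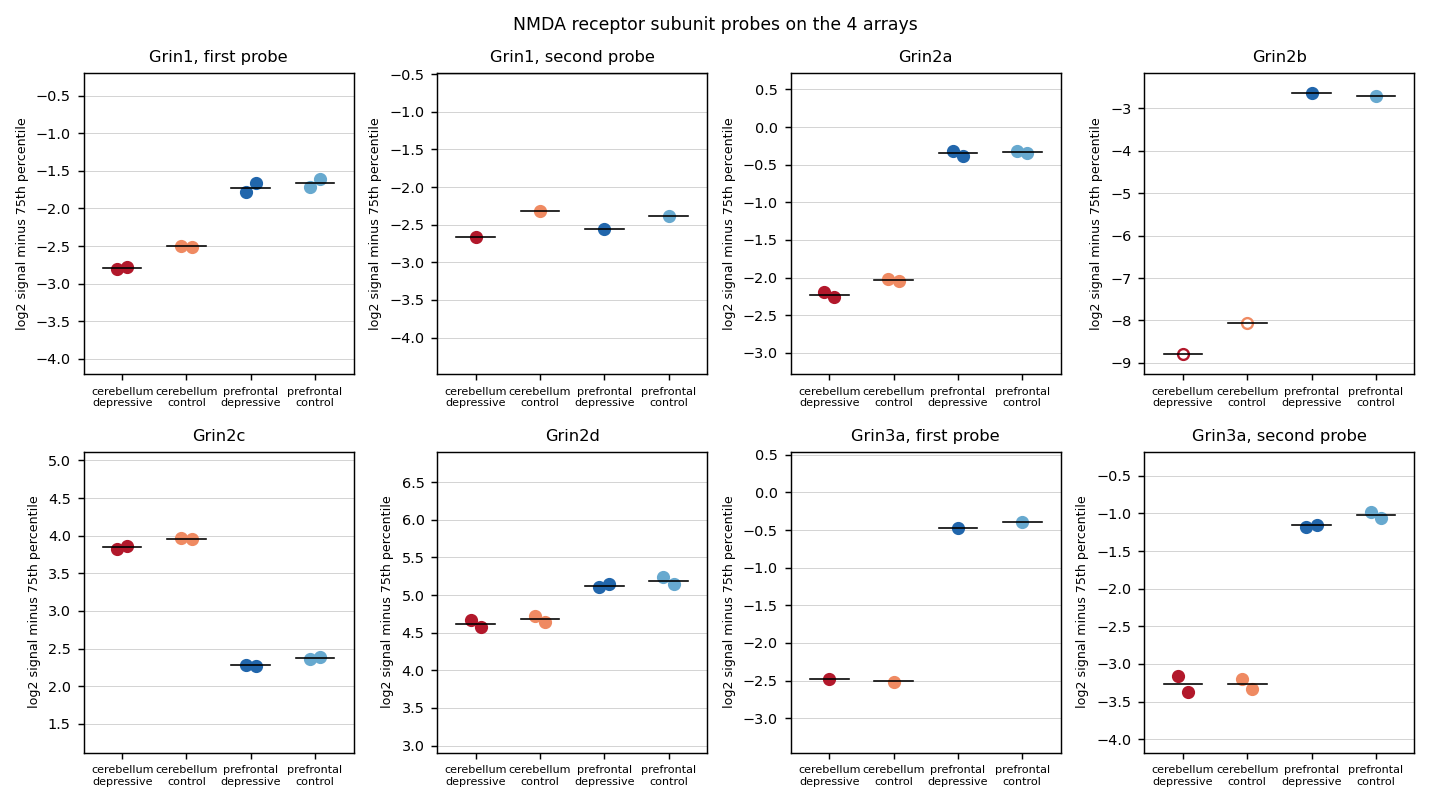
Level of each probe of the 6 subunit genes on the 4 arrays, as log2 of the processed signal minus the array's 75th percentile. Points are spots and lines their mean, an open circle marks a spot not well above background, and panels span at least 4 log2 units on axes of their own. Grin2c is higher on the cerebellum arrays, Grin2a, Grin2b and Grin3a are lower there by 2-fold or more in both states, and the second Grin1 probe has no tissue difference past the threshold.

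Levels below are log2 of the processed signal minus the 75th percentile of the array, so that a level of 0 is a signal as bright as that percentile. Raw signals are given first. Each array has its own scale, so that raw signals of the tissues compare only after this scaling. Brightness depends on the probe, and levels of different subunits are not set against each other. Folds are between scaled values, and the SE within a state is that between spots of equal brightness on the same arrays, which leaves out the spread between pools.

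The obligatory subunit came first. The first Grin1 probe, designed on NM_001270602, was the brighter over the mean of the 4 arrays and stands for the gene, although the second was brighter in cerebellum. It had signals of 631.7 in depressive cerebellum and 709.0 in control cerebellum, against 990.9 in depressive and 986.5 in control prefrontal cortex. The scaled levels were -2.79 and -2.50 in cerebellum and -1.73 and -1.66 in prefrontal cortex, depressive before control. Both prefrontal arrays lay above both cerebellum arrays, and the spots of the tissues did not overlap. Grin1 was lower in cerebellum by 2.09-fold in depressive rats (log2 difference -1.06 ± 0.10, SE between spots) and 1.80-fold in control rats (-0.84 ± 0.06). The limma estimate was -0.95 ± 0.08 (SE of the fit) with an adjusted p of 0.00528. The value reached 2-fold in the depressive pools and missed it in the control pools, and it sits at percentile 15 of the tissue differences of all genes.

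The second Grin1 probe, designed on NM_017010, gave another picture. Its single spot had signals of 692.2 in depressive cerebellum and 807.4 in control cerebellum, against 554.8 in depressive and 598.4 in control prefrontal cortex. After scaling, its levels were -2.66 and -2.32 in cerebellum and -2.56 and -2.38 in prefrontal cortex, depressive before control. The tissues overlapped. A limma fit over all probes put the tissue difference of this probe at -0.02 ± 0.07 (SE of the fit, adjusted p = 0.864), and that of the first probe at -0.95 ± 0.08 (adjusted p = 0.0064). The RefSeq annotation lists 8 transcripts of Grin1, a gene known for alternative splicing of its N-terminal and C-terminal exons. The probe sequences and their places in these transcripts were not used here.

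The Grin1 probes can also be compared within an array, where scaling cancels. The signal of the first probe was 0.913 and 0.878 times that of the second probe in depressive and control cerebellum, and 1.786 and 1.648 times in depressive and control prefrontal cortex. The ratio was therefore lower on both cerebellum arrays, with a log2 difference of -0.94 ± 0.10 (SE between spots). An exact permutation test of 2 arrays against 2 gives p = 0.333 (two-sided), the smallest it can give. Unequal change between the probes does not show which of them follows the total Grin1 RNA. Averaged over both probes, the tissue difference of Grin1 was -0.48, and it still passed.

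Among the GluN2 subunits, Grin2a encodes GluN2A, which gives mature forebrain synapses fast NMDA currents. Grin2a had signals of 934.6 in depressive cerebellum and 981.2 in control cerebellum, against 2569.3 in depressive and 2473.9 in control prefrontal cortex. The order of the scaled levels was control prefrontal cortex (-0.33), depressive prefrontal cortex (-0.35), control cerebellum (-2.03) and depressive cerebellum (-2.23). The first neighbours differed by less than their spot error, and the step to cerebellum was far larger than it. Grin2a was lower in cerebellum by 3.66-fold in depressive rats (-1.87 ± 0.08, SE between spots) and 3.25-fold in control rats (-1.70 ± 0.06). The limma estimate was -1.79 ± 0.07 (SE of the fit, adjusted p = 0.00178), at percentile 7.1 of all genes.

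Grin2b encodes GluN2B, whose channels close slowly and which binds CaMKII. Its single probe was not well above background in depressive cerebellum (9.87) or in control cerebellum (15.05), whereas it had signals of 522.2 in depressive and 478.7 in control prefrontal cortex. Only a bound can be given for cerebellum. Against the lowest signal well above background on each array, or the probe's own where higher, Grin2b was at least 45.8-fold lower in depressive and at least 41.0-fold lower in control cerebellum. The bound over both states was at least 43.3-fold. Under normexp, a background correction that adds an offset of 50, the measured difference shrank to -3.20 on the log2 scale. The fit over the measured values gave an adjusted p of 0.00188 (limma), but the gene entered the fit through prefrontal cortex alone, where it is high, so that it had to differ.

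Grin2c encodes GluN2C, whose channels are little blocked by magnesium. It was the member that rose. Grin2c had signals of 62796.2 in depressive cerebellum and 62505.7 in control cerebellum, against 15871.8 in depressive and 16159.7 in control prefrontal cortex. Scaled levels were 3.85 and 3.96 in cerebellum, and 2.28 and 2.37 in prefrontal cortex, depressive before control. The tissues did not overlap, and all spots of a pool lay within 0.05 of each other. Grin2c was higher in cerebellum by 2.97-fold in depressive rats (1.57 ± 0.06, SE between spots) and 3.0-fold in control rats (1.58 ± 0.04). The limma estimate was 1.58 ± 0.05 (SE of the fit, adjusted p = 0.00132), at percentile 94.9 of all genes. The granule cell markers named above were all higher in cerebellum too, and their part in this difference was not tested.

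Grin2d encodes GluN2D, which gives the slowest channels of the family and in the adult rodent forebrain is known from interneurons. Grin2d had signals of 107493.5 in depressive cerebellum and 103098.9 in control cerebellum, against 114383.5 in depressive and 113746.0 in control prefrontal cortex. The scaled levels were 4.62 and 4.68 in cerebellum and 5.12 and 5.19 in prefrontal cortex, depressive before control. The 2 tissues did not overlap, but the step between them was the smallest of the 6 in size, by the brightest probe of each gene. Grin2d was lower in cerebellum by 1.42-fold in depressive rats (-0.50 ± 0.05, SE between spots) and by 1.42-fold in control rats (-0.51 ± 0.05). The limma estimate was -0.51 ± 0.05 (SE of the fit, adjusted p = 0.00641), at percentile 25.8 of all genes. The probe was brighter than 98.5% or more of all probes on each array. Grin2d overlaps the gene Grwd1 in the RefSeq annotation, and Grwd1's own probe had a tissue difference of 0.06.

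Grin3a encodes GluN3A, a glycine-binding subunit that lowers the calcium flow and is most abundant in young brains. Its first probe, the brighter on all arrays, had signals of 785.6 in depressive cerebellum and 704.0 in control cerebellum, against 2358.6 in depressive and 2361.6 in control prefrontal cortex. Its second probe had signals of 453.3 in depressive cerebellum and 416.6 in control cerebellum, against 1463.1 in depressive and 1532.1 in control prefrontal cortex. Both probes had the prefrontal arrays above the cerebellum arrays, with no overlap of tissues. The first probe was lower in cerebellum by 4.00-fold in depressive rats (-2.0 ± 0.11, SE between spots) and 4.33-fold in control rats (-2.11 ± 0.08), and the second by 4.30-fold and 4.74-fold. The limma estimates were -2.06 ± 0.06 (adjusted p = 0.00122) for the first and -2.18 ± 0.07 (adjusted p = 0.00165, fit over all probes) for the second probe. The ratio of the Grin3a probes, unlike that of the Grin1 probes, differed between tissues by just 0.12 ± 0.09 (SE between spots, log2).

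**Figure D2:**
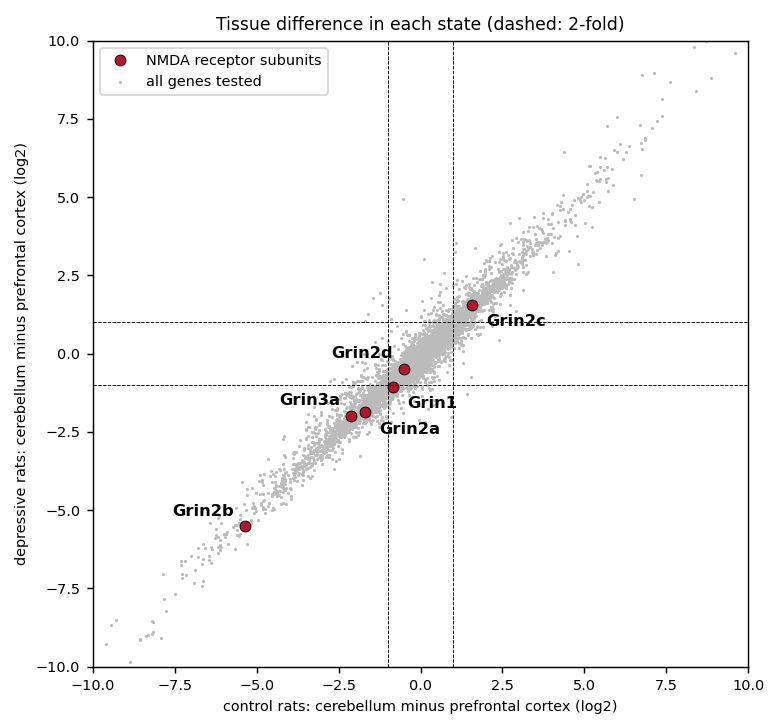
Tissue difference of the 12449 genes tested (grey) and of the 6 subunit genes (red), as log2 of cerebellum over prefrontal cortex, in depressive rats (y axis) against control rats (x axis), with genes beyond 10 log2 units not drawn. Grin2b is drawn at its bounds, and Grin2a, Grin2b, Grin2c and Grin3a lie past 2-fold in both states, Grin1 in depressive rats alone and Grin2d in neither.

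Beside the members, Grin3b, the other GluN3 gene, was dim on every array and did not pass between tissues (1.44 ± 0.40, limma adjusted p = 0.054). Its signals were 131.2 in depressive cerebellum and 38.06 in control cerebellum, against 22.83 in depressive and 17.21 in control prefrontal cortex, where the last was not well above background. The depressive cerebellum value rests on 2 spots that read 67.2 and 256.14, the brighter of them in the outermost column of the array. No change is read from it.

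The second comparison was of the states, depressive against control, which is the contrast the rats were selected for. None of the 6 subunits passed between states in the limma fit with tissue as a term, and 0 of all 12449 genes did, or 0.0%. At an unadjusted p under 0.05 there were 828 genes, or 6.65%, and none of the subunits. In cerebellum 0 of the 5 subunits measured there reached 2-fold, while 1.1% of all genes did, and in prefrontal cortex 0 of 6, while 0.788% of all genes did. With the files as linked, 5 subunits passed between states, a contrast that then is the tissue difference. A missed threshold with 1 array per group does not show that the states have equal levels, and the interval of each difference between states is unknown within a tissue.

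The state differences in the fit were -0.18 ± 0.08 for Grin1 (limma adjusted p = 0.726), -0.10 ± 0.07 for Grin2a (0.747), -0.34 ± 0.24 for Grin2b (0.752), -0.11 ± 0.05 for Grin2c (0.726), -0.06 ± 0.05 for Grin2d (0.766) and -0.02 ± 0.06 for Grin3a (0.93), with the SE of the fit. All estimates lay below 0, and the share of all genes that did so in this fit was not counted. For Grin2b the sign rests on cerebellum values below background (-0.73), since prefrontal cortex gave 0.05. Each tissue's own values follow.

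In cerebellum, the depressive pool lay below the control pool in 4 of the 5 subunits measured, where 58.9% of all genes did. Grin1 had the largest difference of the subunits there. It was 1.22-fold lower in depressive cerebellum by its first probe (-0.29 ± 0.10, SE between spots) and 1.27-fold lower by its second probe (-0.34 ± 0.11). Both probes of Grin1 thus had the depressive pool lower, and the first lay at percentile 4.8 of all genes, whose 5th to 95th percentiles ran from -0.28 to 0.24. Grin2a was 1.14-fold lower (-0.19 ± 0.08), Grin2c 1.08-fold lower (-0.11 ± 0.05) and Grin2d 1.04-fold lower (-0.06 ± 0.05). These lay at percentiles 10.5, 22.5 and 37.2, inside the range of most genes. Grin3a stood at 0.04 ± 0.11 by its first probe and 0.00 by its second probe. In the same comparison all 8 granule cell markers and all 6 Purkinje cell markers lay below 0, with medians of -0.10 and -0.14. The part of these cells in the subunit values was not tested.

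In prefrontal cortex, the depressive pool lay below the control pool in 5 of 6 subunits, where 53.1% of all genes did. The first Grin1 probe differed by -0.07 ± 0.06 and the second by -0.18 ± 0.11 (SE between spots). Grin2a differed by -0.02 ± 0.06, Grin2b by 0.05 ± 0.13, Grin2c by -0.10 ± 0.05 and Grin2d by -0.07 ± 0.05. The Grin3a probes differed by -0.07 ± 0.09 and -0.14 ± 0.06. All 6 subunits by their brightest probe lay inside -0.22 to 0.26, the 5th to 95th percentiles of all genes. Their percentiles ran from 17.9 for Grin2c to 71.1 for Grin2b.

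Markers of other cells and tissues differed between the pools of the 2 states as well, and none of those tested passed between states. All 3 blood cell markers were higher in the depressive pool in both tissues (limma adjusted p = 0.718 each). They summed to 9.72 in depressive and 2.43 in control cerebellum, and to 15.2 in depressive and 4.08 in control prefrontal cortex, in multiples of the 75th percentile. The 4 pituitary markers summed to 0.262 in depressive and 0.579 in control cerebellum, and to 0.319 in depressive and 0.342 in control prefrontal cortex. Among them Gh1 was at least 63.1-fold, Prl at least 18.6-fold and Cga at least 5.05-fold lower in depressive cerebellum, where all 3 were not well above background. In prefrontal cortex Gh1 was at least 3.4-fold and Cga at least 1.8-fold lower in the depressive pool, and Prl was not well above background in either. Pomc, the brightest of the 4 on every array, differed by -0.11 in cerebellum and -0.04 in prefrontal cortex. The 5 choroid plexus markers summed to 168 in depressive and 173 in control cerebellum, and to 1.93 in depressive and 8.3 in control prefrontal cortex. Their median difference was 0.59 in cerebellum, with 1 of 5 below 0, and -1.0 in prefrontal cortex, with 2 of the 3 measured below 0. The 4 meninges markers summed to 13.9 in depressive and 12.9 in control cerebellum, and to 4.03 in depressive and 2.17 in control prefrontal cortex, with none below 0 in either. The 5 oligodendrocyte markers had a median of 0.01 in cerebellum and 0.37 in prefrontal cortex, where none was below 0. The part of these in the state differences of the subunits was not tested.

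**Figure D3:**
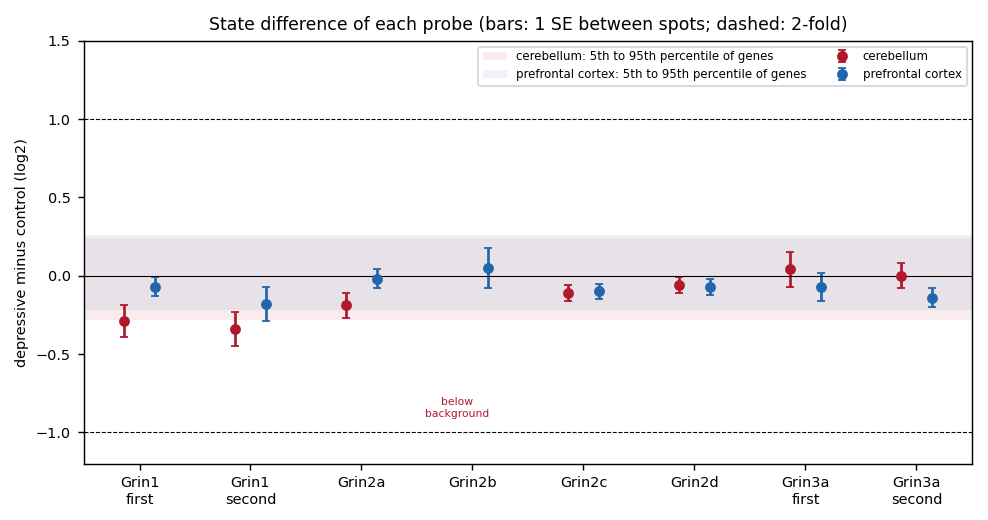
State difference of each subunit probe, depressive minus control on the log2 scale, in cerebellum (red) and prefrontal cortex (blue), with bars of 1 SE between spots and bands for the 5th to 95th percentile of all genes. The Grin1 probes in cerebellum (-0.29 and -0.34) lie past the lower edge of the band, every other value lies within the band of its tissue, and Grin2b in cerebellum is not drawn since both arrays were below background.

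Genes that act with the receptor were taken as 6 lists. Their counts are to be read against the 32.3% of all genes that rose and the 37.4% that fell in cerebellum, and in none of the lists did a gene pass between states. Enzymes and carriers of the co-agonists glycine and D-serine split evenly: of 11 tested, 5 rose and 5 fell in cerebellum, and the median was 0.13. Dao, the D-amino acid oxidase that breaks D-serine down, had signals of 2030 in depressive and 1719 in control cerebellum and was not well above background in prefrontal cortex (6.976 in depressive and 7.282 in control rats). It was at least 160-fold higher in cerebellum, with an adjusted p of 0.000861 (limma). Dao entered the fit through cerebellum alone, where it is high, so that it had to differ. Srr, the serine racemase that makes D-serine, fell 2.16-fold (-1.11 ± 0.06, adjusted p = 0.00269). The glycine transporters Slc6a5, of glycinergic nerve endings, and Slc6a9, mainly of glia, rose 16.5-fold and 2.89-fold (adjusted p of 0.00205 and 0.0027).

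The kynurenine pathway makes quinolinic acid, an agonist of the receptor, and kynurenic acid, an antagonist. Of its 10 genes 7 were tested, and 1 rose and 3 fell in cerebellum, with a median of 0.03. Of 4 aminotransferases that can make kynurenic acid, Kyat1 rose 2.62-fold (1.39 ± 0.05, limma adjusted p = 0.00174) and Aadat fell 6.35-fold (-2.67 ± 0.10, adjusted p = 0.00171), while Kyat3 (0.14, adjusted p = 0.198) and Got2 (0.03, adjusted p = 0.693) did not pass. Haao, which makes the precursor of quinolinic acid, was at least 2.19-fold lower (adjusted p = 0.0369). Haao entered the fit through prefrontal cortex alone, where it is higher, so that it had to differ. Tdo2, which catalyses the first step of the pathway, was well above background on 1 of the 2 cerebellum arrays, and was lower by at least 1.81-fold in depressive and by 1.34-fold in control cerebellum (adjusted p = 0.0326). Tdo2 entered the fit through prefrontal cortex alone, where it is higher, so that its passing says little. Ido1 and Kmo were not well above background on any array, and Kynu was well above it in control cerebellum alone (19.63). None of these genes was tested.

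Scaffolds and receptor partners mostly fell. Of 20 tested, 17 fell and 2 rose in cerebellum, with a median of -1.07. Lrrc7, which encodes densin of the postsynaptic density, fell 63.7-fold, Dlgap2, a scaffold bound by PSD-95, 43.7-fold, and Neto1, an auxiliary protein of glutamate receptors, 33.9-fold (limma adjusted p of 0.000861 each). Actn2, an actinin that binds GluN1 and GluN2B, was well above background on 1 of the 2 cerebellum arrays, and was lower by at least 13.1-fold in depressive and by 14.1-fold in control cerebellum (adjusted p = 0.000885). Actn2 entered the fit through prefrontal cortex alone, where it is high, so that its passing says little.

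Genes of calcium signalling below the receptor fell more often than they rose, with 11 of 16 lower and 4 higher, and a median of -0.92. Camk2a, the kinase subunit that binds GluN2B, had signals of 82.37 in depressive and 79.3 in control cerebellum, against 2613 in depressive and 2548 in control prefrontal cortex. It fell 41.9-fold (-5.39 ± 0.05, limma adjusted p = 0.000861). Rasgrf2, a calcium-responsive exchange factor, was at least 45.6-fold lower (adjusted p = 0.000959), and it stands among the cortical neuron markers too. Rasgrf2 entered the fit through prefrontal cortex alone, where it is high, so that it had to differ. Kalrn, which acts on small GTPases in spines, fell 8.11-fold (adjusted p = 0.00218).

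Of 10 kinase and phosphatase genes, 6 fell and 1 rose in cerebellum, with a median of -0.44. Ptk2b, which encodes Pyk2, an activator of Src, fell 21.3-fold, and Src, which phosphorylates GluN2 subunits, fell 2.77-fold (limma adjusted p of 0.0015 or less). Cdk5r1, the activator of Cdk5, fell 2.30-fold and Prkcb, a protein kinase C, 1.87-fold (adjusted p of 0.00214 and 0.00314). The AMPA and kainate receptor subunits, given for comparison, all passed: 6 of 9 fell and 3 rose, with a median of -1.15. The AMPA subunits Gria1, Gria2 and Gria3 fell 4.59-fold, 3.40-fold and 5.05-fold, and Gria4 rose 3.73-fold (adjusted p of 0.00161 or less).

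**Figure D4:**
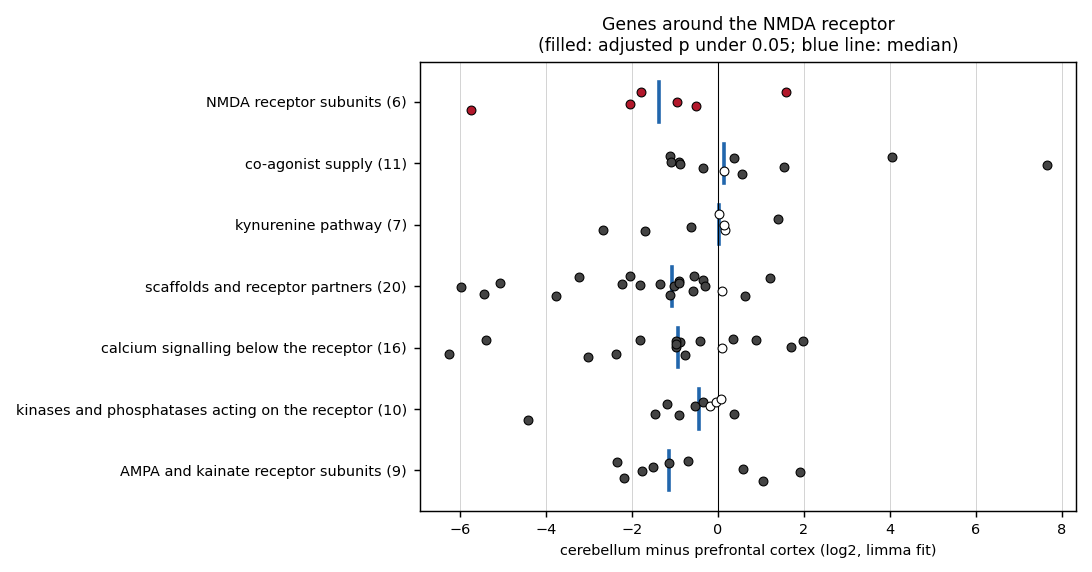
Tissue difference of each tested gene (points, with the number tested in brackets) in the NMDA receptor subunits and the 6 lists of genes around the receptor, as log2 of cerebellum minus prefrontal cortex in the limma fit. Filled points passed an adjusted p of 0.05 and blue lines are medians, which run from -1.37 for the subunits to 0.13 for the co-agonist genes. Genes not well above background in a tissue, Grin2b among them, are drawn at their measured values.

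For 5 subunits up to 2 genes with the nearest profile over the 4 arrays are given, by Euclidean distance of log2 values centred on the gene's mean, among 11609 other genes well above background on all arrays. Grin1 lay nearest to Ccny (distance 0.052), and Grin2a to Baiap2 (0.02) and Cbarp (0.041). Grin2c lay nearest to Plekhd1 (0.029) and Prkg1 (0.044), Grin2d to Zmiz2 (0.017) and Atp6v1b2 (0.018), and Grin3a to Pou3f3 (0.042) and Pitpnm2 (0.044). No distance is given for Grin2b, whose cerebellum values were not well above background. Over 4 arrays such a profile holds little beyond the size of the tissue and state differences.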

How the data were processed

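RNA of 4 pools was hybridised, 400 ng each with Cy3, per the labels' protocols. Arrays were read with Agilent Feature Extraction 10.7.1.1, per the file headers, and the deposited intensity per spot is the authors' processed signal, background-subtracted. The header's build is rn4, and its coordinates are not printed. The deposited table of values holds a linear intensity per probe (23207 probes, medians 0.324 to 0.332), with centring not given in the sources used here. Each column correlated at 0.99989 or more with 1 scanner file, which settled the assignment after the files were seen. The linked files of 2 samples reached 0.93278 and 0.93316.

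Control spots and outlier flags were left out, log2 signals were averaged per probe, and the 75th percentile of an array was subtracted (4369.5 and 4019.96 for depressive and control cerebellum, 3278.06 and 3116.05 for depressive and control prefrontal cortex). A probe was well above background where 50% or more of its spots were. Names came from RefSeq accessions (GRCr8 table), and 12009 probes stayed unnamed. The brightest probe stood for a gene. Genes well above background on both arrays of at least 1 tissue were fitted with limma 3.58.1 (lmFit, eBayes, Benjamini-Hochberg adjustment over all 12449 genes). The fit was run on simulated data with few changed genes and independent errors. That setting differs from these data, where most genes passed between tissues, so that it does not check the calls made here. Spot errors came from the 500 probes with 2 spots nearest in brightness, and the number of arrays limits the precision. The named genes are the members with every probe, Grin3b, up to 4 genes per list with the largest tissue difference, and up to 2 nearest profiles per member. Of these, 2 genes are not reported here. Genes overlapping a member were named after their values were seen. The members and lists were chosen with earlier results of these data known. Alternatives were normexp (offset 50), quantile and median normalization, filters, the mean of probes, the deposited table, the files as linked, no state term, all probes and an intensity trend.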

Additional observations from a re-analysis of the deposited data

How the results depend on the processing

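By the probe that stands for the gene, or the mean of its probes, the tissue difference of each subunit tested kept its direction and stayed past the threshold over 9 settings (8 for Grin2b, which was not tested where all 4 arrays had to be well above background), the scanner files as linked to samples not among them. Grin2b entered the filtered settings through prefrontal cortex alone, where it is high, so that its passing there says little. In the fit over every probe, the second Grin1 probe did not pass (-0.02, adjusted p = 0.864). Over these settings, the difference ran from -0.95 to -0.48 for Grin1, -1.79 to -1.68 for Grin2a, -5.81 to -3.20 for Grin2b, 1.58 to 1.77 for Grin2c, -0.51 to -0.28 for Grin2d and -2.12 to -1.98 for Grin3a, with a highest adjusted p of 0.0259 (limma). The lowest size was the mean of probes for Grin1, normexp for Grin2b and quantile normalization for Grin2d. In a single state, without the other, the ranges were -1.06 to -0.84 for Grin1, -1.87 to -1.70 for Grin2a, -6.14 to -5.36 for Grin2b, 1.57 to 1.58 for Grin2c, -0.51 to -0.50 for Grin2d and -2.11 to -2.0 for Grin3a. The Grin2b values are as measured, and its bounds were -5.52 in depressive and -5.36 in control rats. With the files as linked, the groups exchange 2 arrays, and the values were 0.18 for Grin1, 0.10 for Grin2a, 0.06 for Grin2d, 0.02 for Grin3a (all turned) and 0.11 for Grin2c. Then 0 genes, 0 subunits and, at 2-fold in both states, 0 subunits differed between tissues, 8485 genes and 5 subunits passed between states, and 3 subunits reached 2-fold between states in cerebellum and 4 in prefrontal cortex. Over every probe, 14766 of 23326 probes passed between tissues, more features than in the fit over genes. Between states 5 genes passed with normexp (on the median signals, chosen after the files were seen) and 5 with an intensity trend, none a subunit, and the cause was not tested. Where all 4 arrays had to be well above background, Grin2b was left out and 5 subunits passed, as did 8458 of 11616 genes. Quantile normalization moved the median tissue difference of all genes to 0.07, against -0.04.

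The fit compares the tissues within each state, and without the state term 6 subunits passed as well. Spot error leaves out the spread between rats and between pools, and a tissue effect that differs with state cannot be tested with 1 array per group. Dim signals give bounds only: the lowest signal well above background was 15.2 in depressive and 8.36 in control cerebellum, and 8.87 in depressive and 8.98 in control prefrontal cortex.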

Other observations

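Genes that overlap a subunit gene in the RefSeq annotation had probes of their own. Lrrc26, which overlaps Grin1, had signals of 366 in depressive and 362 in control cerebellum, against 374 in depressive and 369 in control prefrontal cortex, a scaled tissue difference of -0.42. Grwd1, which overlaps Grin2d, had signals of 531 in depressive and 537 in control cerebellum, against 380 in depressive and 401 in control prefrontal cortex. Ppp3r2, which overlaps Grin3a, was not well above background on any array.

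Further genes of these lists differed between the tissues in opposite directions. Nos1, the neuronal nitric oxide synthase coupled to the receptor by PSD-95, had signals of 289.5 in depressive and 301.8 in control cerebellum, against 59.8 in depressive and 55.17 in control prefrontal cortex, and rose 3.92-fold in cerebellum (limma adjusted p = 0.00189). Dlg4, which encodes PSD-95 itself, had signals of 214.8 in depressive and 210.9 in control cerebellum, against 522.6 in depressive and 627.7 in control prefrontal cortex, and fell 3.53-fold (adjusted p = 0.00224). Among the CaMKII genes other than Camk2a, Camk2d rose 3.23-fold (adjusted p = 0.00237), Camk2g fell 1.99-fold (adjusted p = 0.00232), and Camk2b had a difference of 0.10 that did not pass (adjusted p = 0.164). These genes were named after their values were seen.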
